A study of Rattus norvegicus with 2 samples.

Results

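AP-1 is a family of transcription factors built as pairs of leucine-zipper proteins. A Fos protein (Fos, Fosb, Fosl1 or Fosl2) pairs with a Jun protein (Jun, Junb or Jund), while Jun proteins can also pair with each other or with ATF proteins such as Atf3. The pair binds the DNA letters TGAGTCA, read as TGACTCA on the other strand. Egr1 is a zinc-finger factor that shares with several of these genes a rapid induction by growth factors, injury and kinase signalling, for which they are called immediate early genes. In epidermis AP-1 takes part in proliferation, wound response, cytokine expression and the switch to terminal differentiation, and its subunits differ in effect: in mouse skin Jun favours growth through the EGF receptor, whereas Junb restrains cytokine expression.

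The 9 genes described here are the AP-1 subunit genes Fos, Fosb, Fosl1, Fosl2, Jun, Junb and Jund together with Atf3 and Egr1. They were chosen by symbol and with the log2 differences between the same 2 arrays in view, so their differences are described and not tested. All 9 had exactly 1 named probe set, out of 15037 genes with a named probe set.

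The tested cells were newborn rat epidermal keratinocytes transfected with 2 siRNAs, siTet2 at 1 µM and siTet3 at 1 µM, and then given vitamin C for 12 h starting 24 h later (siTet2/3). The control cells were of the same kind and also received vitamin C for 12 h; the labels give them as control, NC and non-treated, without spelling NC out or saying whether they received another siRNA. The siRNAs target messages of TET enzymes, which oxidise methylated cytosine, and vitamin C is a cofactor that promotes this reaction. Total RNA of each group was hybridised to 1 whole-transcript array, so no value has a replicate error, no test was possible, and "higher" and "lower" refer to these 2 arrays. No array without vitamin C and no earlier time point was used here, so a short induction of these genes could not be seen.

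Both arrays read as keratinocytes. The 9 of 12 keratinocyte markers with a named probe set all lay above background, Krt14 at 18.70 log2 units on the siTet2/3 array and 18.54 on the control array. Of 31 markers of fibroblasts, melanocytes, immune, endothelial and muscle cells, 3 lay above background (Mitf, Cd68 and Tek), and 0 of these differed by 1.5-fold. The endothelial marker Tek read 9.25 log2 units on the siTet2/3 array and 9.66 on the control array. The other 5 endothelial markers with a named probe set were below background. Of the keratinocyte markers 1 differed by 1.5-fold, Epcam, which was 1.78-fold higher on the siTet2/3 array. Tet1, Tet2 and Tet3 had no named probe set, so the knockdown was not checked here. A background level of 5.04 log2 units was set from 1206 chemoreceptor genes, which keratinocytes are not expected to express as a group (their 95th percentile). The deposited values reach 19.93 log2 units, higher than RMA signals usually do, so a further transformation may have been applied and all folds are those of the deposited scale. A stricter background level from 1153 negative-control probes was 8.31. Epcam, at 6.52 log2 units on the siTet2/3 array and 5.68 on the control array, lay below this stricter level on both. Signals of different probe sets depend on probe response and are not compared as amounts of RNA between genes.

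Of the 9 genes, 5 were at least 1.5-fold lower on the siTet2/3 array (Jun, Fosb, Fosl1, Egr1 and Atf3), none was at least 1.5-fold higher (0 of 9), and the remaining 4 stayed within these limits. For comparison, 13.2% of the 8103 named genes above background were at least 1.5-fold lower and 8.63% at least 1.5-fold higher. The median difference (siTet2/3 minus control) of the 9 genes was -0.67 log2 units, where that of all 8103 genes was -0.05. The difference was below 0 for 8 of the 9 genes. The median of all genes was itself below 0, and their share below 0 was not counted. Among the 8 was Fosl2 at -0.01 log2 units, which stood at 0.04 after centring on the median of all genes. Because the genes were picked with these arrays in view, the count is a description and supports nothing further. Fosb passed the background level on the control array only, so it had to differ to be counted; of the 8 genes above background on both arrays 4 were lower, where 12.0% of 7504 such genes were. In bulk RNA of this kind, fewer cells with a message and less message per cell cannot be told apart.

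**Figure D1:**
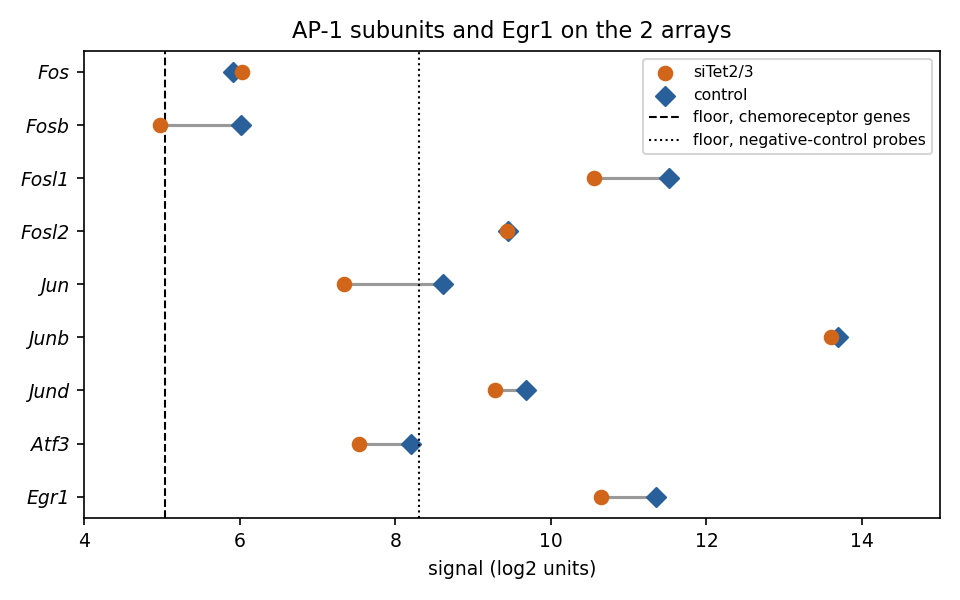
Signals of the 9 genes in log2 units on the siTet2/3 array (circles) and the control array (diamonds), 1 array each, with the background levels from chemoreceptor genes (dashed) and negative-control probes (dotted). Jun shows the widest gap, 7.34 against 8.62, and the symbols of Fosl2 and Junb nearly coincide.

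Among the Jun proteins, the differences ran from -1.28 to -0.09 log2 units. Jun, the founding AP-1 subunit and a strong activator, read 7.34 log2 units on the siTet2/3 array and 8.62 on the control array. That is a difference of -1.28, or 2.43-fold lower. The control value stood 3.58 log2 units above the chemoreceptor level and the siTet2/3 value 2.30 above it. Against the stricter level Jun was above background on the control array alone, and its fold is then a bound of at least 1.24-fold lower. Only 1 of the 8 genes above background on both arrays, Jun, was at least 2-fold lower, where 2.48% of all such genes were.

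Junb, which can oppose Jun at shared sites, read 13.61 log2 units on the siTet2/3 array and 13.69 on the control array, a difference of -0.09. Jund, a subunit usually present in resting cells, read 9.29 and 9.68 log2 units on the siTet2/3 and control arrays. Its difference of -0.40 (1.32-fold lower) stayed short of the 1.5-fold limit. The 3 Jun genes thus included 1 past the limit and 2 that were not, and how they differ from each other was not testable with 1 array per group.

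Among the Fos proteins, Fosl1 (Fra-1), a subunit without a strong activation domain that is linked to migration and wound edges, read 10.55 log2 units on the siTet2/3 array and 11.52 on the control array. The difference was -0.96, or 1.95-fold lower, with both values more than 5 log2 units above background. Fosb, an inducible subunit, read 4.98 log2 units on the siTet2/3 array, just under background, and 6.01 on the control array, so its fold is at least 1.96-fold lower. On both arrays it was below the level from negative-control probes. Of the 400 genes nearest to Fosb in mean signal, 65 (16.2%) were at least 1.5-fold lower.

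Fosl2 (Fra-2), which has been tied to late differentiation of mouse epidermis, read 9.43 log2 units on the siTet2/3 array and 9.45 on the control array. Its difference was -0.01 log2 units, and 0.04 after centring on the median of all genes, so its sign depended on the scaling. Fos, the founding member of the family, read 6.03 log2 units on the siTet2/3 array and 5.91 on the control array, a difference of 0.11 close to background. Fos and Fosb were the 2 genes that stood within 1 log2 unit of background on both arrays.

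Egr1, the zinc-finger factor, read 10.65 log2 units on the siTet2/3 array and 11.36 on the control array, a difference of -0.71 or 1.63-fold lower. Atf3, a stress-induced factor that often represses, read 7.53 log2 units on the siTet2/3 array and 8.20 on the control array, a difference of -0.67 or 1.60-fold lower. Atf3 was the nearest to the limit of the 5, at 1.54-fold lower after centring, and Egr1 then stood at 1.57-fold lower. Both values of Atf3 were below the level from negative-control probes, whereas both of Egr1 were above it.

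The spread of genes with similar signal puts these differences in scale. Among the 400 genes nearest to Jun in mean signal, the differences had a robust SD of 0.42 log2 units, and 5 of them (1.25%) were at least as low as Jun. For Fosl1 the robust SD was 0.36 and 6 of 400 (1.5%) were as low, and for Egr1 it was 0.36 and 15 of 400 (3.75%). Fosb had 13 of 400 (3.25%) around it that were as low, with a robust SD of 0.59. These were the less common differences, while Atf3 was matched by 43 of 400 (10.8%) and Jund by 89 of 400 (22.2%). Junb and Fosl2 lay well within the spread, with 158 and 232 of 400 genes as low, and 249 of 400 were as low as Fos. This spread mixes noise with real differences between the cultures and is no replicate error.

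**Figure D2:**
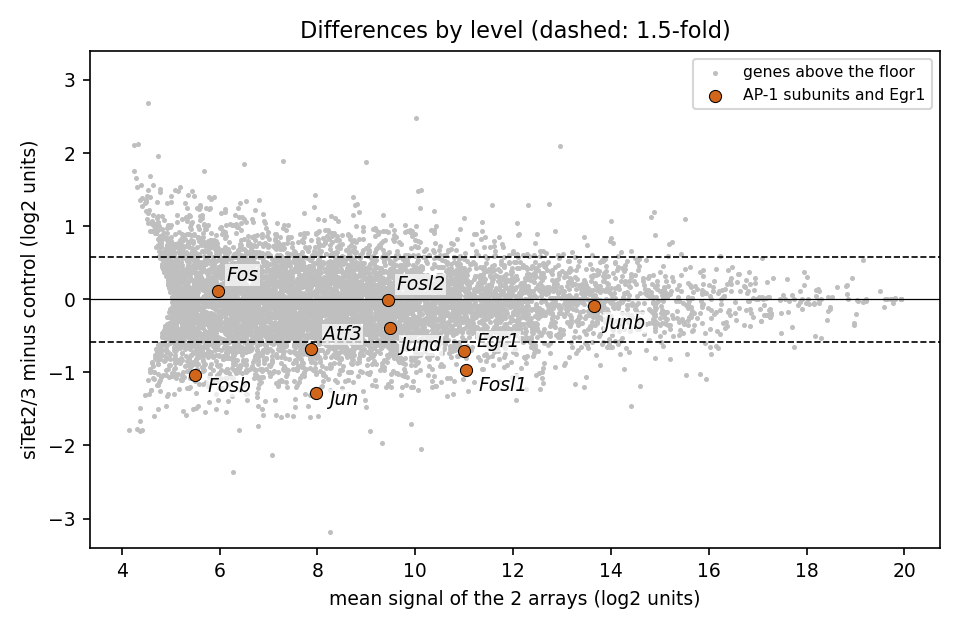
Difference (siTet2/3 minus control, log2 units) against the mean signal of both arrays (log2 units) for the 8103 named genes above background (grey), with the 9 genes marked and 1.5-fold drawn as dashed lines. Jun at -1.28, Fosb at -1.04 and Fosl1 at -0.96 lie lowest of the 9, and Fos, Fosl2 and Junb lie near 0.

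By the distance between pairs of signals over the 2 arrays, the genes most like Jun were Dffa (0.02 log2 units away) and Samd8 (0.10), and those most like Fosl1 were Oser1 (0.12) and Plau (0.13). Oser1 (0.07) and Cox17 (0.10) were nearest to Egr1, and Gzf1 (0.02) and Slc25a17 (0.02) to Atf3. With 2 arrays such likeness means only a similar signal and difference.

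Promoter windows of 300 bases, 250 before and 50 after the RefSeq start site (build GRCr8), were on hand for 6 of the 9 genes: Fosb, Fosl1, Fosl2, Jund, Junb and Egr1. Shown are the 4 with a match to the motifs below: Egr1 and Fosl1, which were lower, and Jund and Junb, not past the limit. Fosb, which was lower, and Fosl2 held no match and are not shown. Fosl1 and Junb matched only the 5-letter TGACG, which was added to the search after the windows had been read. The motifs are those of SRF, CREB/ATF and EGR factors, which are known to act at such genes. Letters in capitals mark matches on either strand to a CArG box (the SRF site: CC, then 6 letters that are A or T, then GG), the CRE TGACGTCA bound by CREB and ATF proteins, its 5-letter core TGACG, or the Egr1 site GCGTGGGCG. The AP-1 letters TGAGTCA or TGACTCA were also searched. Egr1 lies at chr18:26736828-26737127 (plus strand), Fosl1 at chr1:212183635-212183934 (plus strand), Jund at chr16:18769722-18770021 (minus strand) and Junb at chr19:40080876-40081175 (plus strand); each is written 5′ to 3′ along its gene.
Egr1: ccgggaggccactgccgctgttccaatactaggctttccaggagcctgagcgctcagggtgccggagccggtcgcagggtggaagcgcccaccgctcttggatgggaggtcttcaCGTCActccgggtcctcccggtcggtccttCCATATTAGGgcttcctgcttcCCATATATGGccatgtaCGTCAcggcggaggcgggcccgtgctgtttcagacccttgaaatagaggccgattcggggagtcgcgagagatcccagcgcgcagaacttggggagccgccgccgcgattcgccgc
Fosl1: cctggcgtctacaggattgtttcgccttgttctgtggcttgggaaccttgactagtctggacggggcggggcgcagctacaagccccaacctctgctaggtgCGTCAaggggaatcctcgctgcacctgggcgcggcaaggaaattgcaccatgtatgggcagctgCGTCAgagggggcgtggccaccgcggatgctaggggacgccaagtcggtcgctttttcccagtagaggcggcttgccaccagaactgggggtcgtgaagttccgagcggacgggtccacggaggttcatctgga
Jund: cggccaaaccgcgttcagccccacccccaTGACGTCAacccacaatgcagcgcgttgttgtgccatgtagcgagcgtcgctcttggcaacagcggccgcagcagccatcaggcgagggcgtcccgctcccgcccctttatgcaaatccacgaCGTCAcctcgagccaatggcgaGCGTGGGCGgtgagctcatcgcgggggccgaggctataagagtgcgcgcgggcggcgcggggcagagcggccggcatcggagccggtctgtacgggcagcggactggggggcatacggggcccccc
Junb: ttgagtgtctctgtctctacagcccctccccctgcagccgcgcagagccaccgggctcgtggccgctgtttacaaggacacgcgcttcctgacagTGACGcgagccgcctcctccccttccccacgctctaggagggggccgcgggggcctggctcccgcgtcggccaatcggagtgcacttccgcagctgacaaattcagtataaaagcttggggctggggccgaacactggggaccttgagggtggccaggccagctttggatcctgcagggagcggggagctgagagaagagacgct

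Egr1 held both CArG boxes found among the 6 windows, CCATATTAGG from -105 to -96 and CCATATATGG from -83 to -74 relative to the start site, flanked by CRE cores at -135 and -66. A CArG box occurred in 1.64% of all 33469 RefSeq windows of this length. Jund held the only whole CRE, from -221 to -214, a motif present in 1.83% of windows, and the only Egr1 site, from -76 to -68, present in 0.544%. Fosl1 held CRE cores starting at -148 and -84, and Junb held 1 at -155. CRE cores are contained in every whole CRE and occurred in 21.2% of windows. These shares are over all windows, whatever the level of the gene. Among the 6839 genes above background with a window, 2366 genes outside the 9 held a CRE core. A whole CRE was held by 243 such genes, an Egr1 site by 73, a CArG box by 86 and the AP-1 letters by 276. The AP-1 letters occurred in 0 of the 6 windows and in 4.63% of all windows; elements outside these 300 bases were not looked at.

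**Figure D3:**
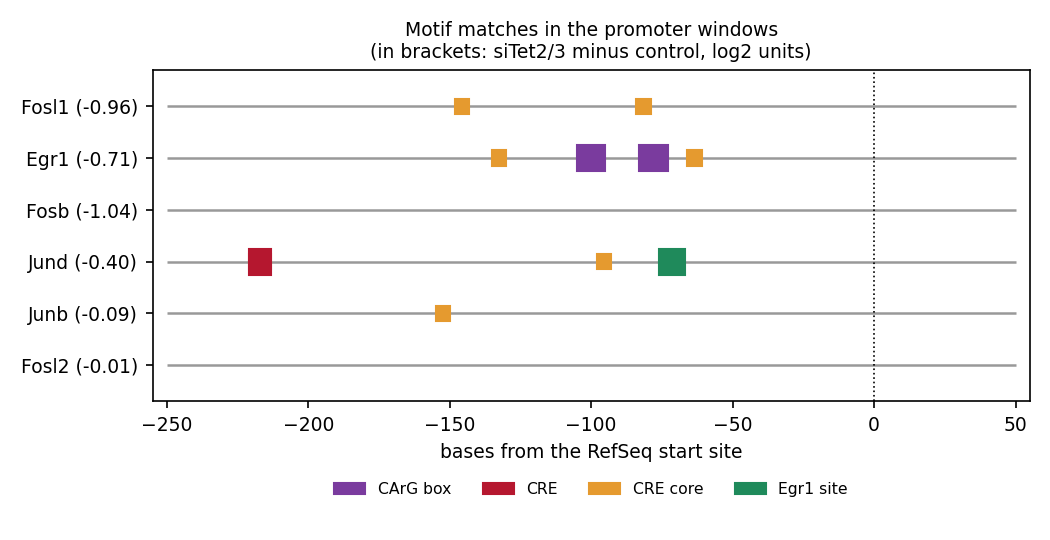
Motif matches along 6 promoter windows, in bases from the RefSeq start site, with each gene's difference (siTet2/3 minus control, log2 units) in brackets. The pair of CArG boxes stands in Egr1 (-0.71), the whole CRE and the Egr1 site in Jund (-0.40), and Fosb (-1.04) and Fosl2 (-0.01) hold none of the motifs drawn.

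All 6 windows held more CG dinucleotides, the sites at which TET enzymes act, than the median window. That median covers all RefSeq windows, whatever the level of the gene, and none was computed for genes above background. There were 38 in Fosl2, 37 in Jund, 29 in Egr1, 22 in Fosl1, 21 in Junb and 14 in Fosb, where the median of all windows was 7 and the upper quartile 19. Of these genes, Egr1, Fosl1 and Fosb were at least 1.5-fold lower, and Fosl2, Jund and Junb were not past this limit. Whether the counts go with the differences was not tested. Methylation was not measured in the data used here.

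Among genes that carry these motifs the shares of lower genes ran from 12.8% to 16.7%. Leaving out the 9 genes, 46 of 276 genes above background with the AP-1 letters in their window (16.7%) were at least 1.5-fold lower and 22 were higher, with a median difference of -0.06 log2 units. All 6839 genes above background with a window had 13.1% lower, 8.67% higher and a median of -0.05. With a CArG box 11 of 86 genes (12.8%) were lower, with a whole CRE 33 of 243 (13.6%), and with an Egr1 site 11 of 73 (15.1%). The shares of higher genes were 7.97% with the AP-1 letters, 9.30% with a CArG box and 8.64% with a whole CRE. With an Egr1 site 3 of 73 genes (4.11%) were higher.

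A list of 36 genes known as AP-1 targets in keratinocytes or other cells was described next; it was written with earlier results on several of its genes known. Of the 23 members above background, 11 passed 1.5-fold downward on the siTet2/3 array, 0 passed it upward and 12 did not pass it, with a median difference of -0.56 log2 units; among all 8103 genes above background the shares were 13.2% downward and 8.63% upward. All 23 were above background on both arrays, and 12.0% of all 7504 such genes were lower. The colony-stimulating factor genes Csf3 and Csf2 were 4.13-fold and 2.74-fold lower, and Plaur, the urokinase receptor gene, 2.30-fold lower. The other 8 were Plau, Vegfa, Cxcl1, S100a8, Il1a, Hbegf, Dusp1 and Tgm1, from 2.13-fold down to 1.51-fold lower. Against the stricter level of 8.31, Csf2 and S100a8 were above background on the control array alone. Csf2 read 7.08 log2 units on the siTet2/3 array and 8.54 on the control array, and S100a8 read 7.46 and 8.44.

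The matrix metalloproteinase genes of that list, which carry AP-1 sites in their promoters in human cells, did not share this. Mmp13 read 15.85 log2 units on the siTet2/3 array and 15.40 on the control array, and Mmp3 read 14.78 and 14.52 on the siTet2/3 and control arrays, differences of 0.45 and 0.25. Mmp9 and Mmp10 differed by -0.08 log2 units each, and Mmp1 was below background. Ccnd1, the cyclin D1 gene, differed by 0.03, the hyaluronan receptor gene Cd44 by 0.29, and the envelope precursor genes Sprr1a and Ivl by -0.10 and -0.15.

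Of 24 other immediate early genes above background, 8 passed 1.5-fold downward on the siTet2/3 array, 0 upward and 16 not at all, with a median of -0.27 log2 units, beside 13.2% downward and 8.63% upward over all genes. Csrnp1 passed background on the control array only; of the 23 genes above it on both arrays 7 were lower, beside 12.0% of all such genes. Btg1, an antiproliferative gene, read 11.93 log2 units on the siTet2/3 array and 13.16 on the control array, 2.34-fold lower. Zfp36, whose protein speeds decay of cytokine messages, read 10.04 log2 units on the siTet2/3 array and 10.95 on the control array, 1.88-fold lower. Csrnp1, a nuclear protein gene, was at least 1.63-fold lower. The other 5 were Ccn2, Klf10, Dusp1, Ier3 and Plk3, between 1.53-fold and 1.67-fold lower. Dusp1, a phosphatase of MAP kinases, is counted in both lists, as Srf and Trib1 are here and among the genes acting above AP-1 or on its proteins.

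Several immediate early genes stayed apart from this. Myc differed by -0.28 log2 units, Klf6 by 0.06 and Sgk1 by 0.04, while Gadd45b differed by 0.54 and read 14.08 log2 units on the siTet2/3 array and 13.54 on the control array. Nr4a1, Nr4a2, Nr4a3 and Arc, often induced together with Fos and Egr1, were below background on both arrays. The other EGR family genes Egr2, Egr3 and Egr4 were also below background, and Nab1, whose protein represses EGR factors, differed by 0.25.

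**Figure D4:**
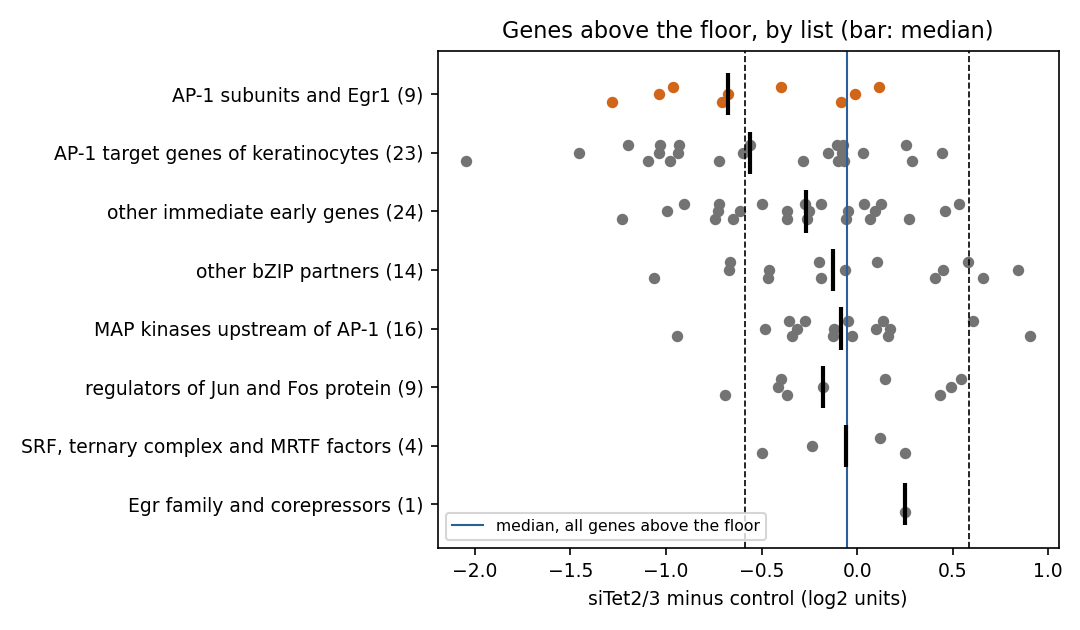
Difference (siTet2/3 minus control, log2 units) of every gene above background in 8 lists, each point 1 gene, with the list's median as a black bar, 1.5-fold as dashed lines and the median of all genes above background in blue; numbers in brackets are genes. The 9 genes (median -0.67) and the AP-1 target list (-0.56) lie furthest to the left.

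Of 14 other leucine-zipper genes above background, among them partners of AP-1 subunits, 3 passed 1.5-fold downward, 2 upward and 9 not at all, with a median of -0.13 log2 units, beside 13.2% and 8.63% of all genes. Cebpb and Atf5 passed background on 1 array only, and their bounds fall short of 1.5-fold. Of the 10 genes above background on both arrays, 2 were lower and 1 was higher, where 12.0% of 7504 such genes were lower. Atf2, an ATF partner of Jun, read 12.32 log2 units on the siTet2/3 array and 11.66 on the control array, 1.58-fold higher, and Atf5, a factor of the stress response, was at least 1.24-fold higher. Cebpb was at least 1.23-fold lower, the stress gene Ddit3 1.59-fold lower and Atf1, a CREB relative, 1.58-fold lower. Batf, Batf3 and Jdp2, further dimer partners, were below background.

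Of 16 MAP kinase pathway genes above background, 1 passed 1.5-fold downward (Mapk11, a p38 kinase gene, 1.92-fold), 2 upward (Map2k4, a kinase of JNK, 1.52-fold, and Map3k5 as measured) and 13 not at all, with a median of -0.08 log2 units, beside 13.2% and 8.63% of all genes. Mapk11 read 5.18 log2 units on the siTet2/3 array, close to background, and 6.12 on the control array. Both values were below the level from negative-control probes. Map3k5 passed background on the siTet2/3 array only, with a bound of at least 1.08-fold. Of the 15 genes above background on both arrays 1 was lower and 1 higher, where 12.0% of 7504 such genes were lower. The JNK genes Mapk8 and Mapk9, whose products phosphorylate Jun, differed by 0.14 and -0.34. Srf, which encodes the factor that binds CArG boxes, read 6.89 log2 units on the siTet2/3 array and 7.38 on the control array, a difference of -0.50 that was the largest of the 4 genes of its list above background, none of which passed the limit. Of 9 regulators of Jun or Fos protein above background, 1 passed 1.5-fold downward and 0 upward, beside 13.2% and 8.63% of all genes. It was Men1, the gene of menin, a partner of JunD, 1.61-fold lower. Men1 read 6.61 log2 units on the siTet2/3 array and 7.30 on the control array, both below the level from negative-control probes. The ligase gene Cop1 differed by 0.49 and Gsk3b by 0.15.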

How the data were processed

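Labelled cDNA of 1 siTet2/3 and 1 control culture was hybridised to 1 array each, and the genotype label gave the groups. The authors deposited log2 signals, 1 per probe set and array; RMA and the Transcriptome Analysis Console are named in the submitters' processing notes with no version or setting, and the genome build is not given in the sources used here. Medians were 4.90 (siTet2/3) and 4.85 (control) and values ran from 1.36 to 19.93. A platform table named 15049 probe sets; probe sets of 1 gene were averaged. Differences of log2 values (siTet2/3 minus control) were computed with Python 3.11.15 and pandas 2.3.3. A gene was counted if its higher value passed the 95th percentile of chemoreceptor genes (not Olr1) and its difference reached 1.5-fold; where only 1 value passed, the fold is a bound against that level. The counting was checked on made-up shifts of known size.

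The members and lists were chosen with earlier results of these data known, and the CRE core was added after the promoter windows had been read. In each list the up to 3 largest differences past 1.5-fold in each direction were named, or else the largest; others were named after their values were seen. The genes most like a member were the 2 nearest in the plane of both signals, for members past 1.5-fold and above background on both arrays, placeholder names left out. Promoter windows come from RefSeq (GRCr8).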

Additional observations from a re-analysis of the deposited data

How the results depend on the processing

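With 1 array per group no replicate could be left out, and the number of arrays limits every value. The count of 5 lower genes was the same with no background level and with values below it raised to it. It was also the same after centring and after removal of a lowess trend on level (span 0.3). In this order, the shares of all genes that were lower under these settings were 11.2%, 11.8%, 11.1% and 11.2%. Choosing the brightest probe set could not change the count, since each gene had 1. With a level 1 log2 unit higher the count was 4 of 7, without Fosb, where 12.8% of 6802 genes were lower. With the level from negative-control probes 3 of 6 genes were lower (Fosl1, Jun and Egr1), with a median of -0.55, and 11.0% of 4124 genes were lower. At a 2-fold limit 2 were lower as measured (Jun and Fosb), where 3.05% of genes were. Fosb was under background on the siTet2/3 array, and its bound of at least 1.96-fold falls short of 2-fold. The count of higher genes was 0 under all of these settings. The mean of the 9 differences was -0.56. Over the other 7 lists together, 23 of 88 genes above background were lower and 4 higher, beside 13.2% lower and 8.63% higher over all genes. The lists were chosen with earlier results known, so this count is a description. Of the list genes, 2 were higher with the level from negative-control probes and 7 after centring. Among all genes, 248 of 4124 and 845 of 8103 were higher under these 2 settings. The 18 single-gene values under centring and trend removal kept their side of the 1.5-fold limit.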
